A study of Homo sapiens with 10 samples.

Results

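RNA for the natural cytotoxicity receptors, and for the small adaptor proteins that carry their signal, was followed here in NK-92. This is a line of malignant human natural killer (NK) cells, and no protein level was analysed. The set holds 10 genes picked by name, NCR1, NCR2, NCR3, FCGR3A, KIR2DL4, CD2, CD247, FCER1G, TYROBP and HCST. All 10 were found among the 54628 gene symbols of the deposited count table, and all 10 were among the 20125 genes with enough counts to test. The 10 libraries form 5 groups of 2. Cells given 500 µM DFO (deferoxamine, an iron chelator) were collected at 6 h or 24 h, cells given 10 µg/mL PPMX-T003 (T003 below, an antibody against the transferrin receptor) at 6 h or 24 h, and untreated cells at 0 h. All groups were the same line, with no genetic change named in the labels, grown in Artemis Medium-1 to which human serum (2%) was added. The series' design text speaks of 24 h alone, and the sample labels, which also give 6 h, were followed. No untreated library of 6 h or 24 h was analysed here, so time in culture and agent cannot be told apart in the comparisons with untreated cells. Nor can time in culture and length of treatment be told apart in the comparisons of 24 h with 6 h. Whether the 2 libraries of a group came from separate cultures is not stated in any label, and every p-value below therefore rests on a spread between libraries that may be technical only.

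NK cells read a target cell through receptors that signal mainly by way of partner chains. NKp46 (NCR1), NKp30 (NCR3) and CD16 (FCGR3A) lean on CD247 (the CD3 zeta chain) and FCER1G, NKp44 (NCR2) on TYROBP (DAP12), and KIR2DL4 on FCER1G. These adaptors carry tyrosine motifs (ITAMs) that recruit the kinases SYK and ZAP70 once phosphorylated. HCST (DAP10) has no ITAM, serves the receptor NKG2D (KLRK1) and recruits PI3 kinase and GRB2, while CD2 binds CD58 and costimulates through its own tail.

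Each library held between 107117892 and 143575614 estimated counts. A floor of 3 counts corresponded to 0.0209 to 0.0278 CPM, counts divided by a library size adjusted by the TMM method, which covers counting error only. TFRC, the transferrin receptor that iron shortage is known to raise, averaged 353 CPM in DFO 6 h cells, 834 CPM in DFO 24 h cells, 428 CPM in T003 6 h cells, 846 CPM in T003 24 h cells and 171 CPM in untreated cells. NK cell markers were abundant in every library, with 12 of the 15 listed at a mean of 1 CPM or more. KLRB1, KLRF1 and FCGR3A were the 3 below that level. The summed level of the NK list was 2690.1 to 2731 CPM in DFO 24 h cells, 2827 to 2839 CPM in T003 24 h cells and 2676 to 2690.1 CPM in untreated cells. In bulk RNA, fewer cells of a type and less RNA per cell cannot be told apart.

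The promoter windows of KIR2DL4 and CD247 are shown first, because those genes carry the opposite changes described further on. Against untreated cells at 24 h, the receptor gene KIR2DL4 was called higher with each agent and the adaptor gene CD247 lower with DFO. The windows follow in that order. Both are RefSeq sequence of GRCh38.p14, 250 bases before to 50 after the gene start, read 5′ to 3′ on the gene's strand. The KIR2DL4 window lies at chr19:54803360-54803659 on the plus strand, and its capitals mark matches to the RUNX letters TGTGGT or their reverse complement. The CD247 window lies at chr1:167518480-167518779 on the minus strand, and its capitals mark a match to the ETS letters GGAAGT, here as the reverse complement.
KIR2DL4: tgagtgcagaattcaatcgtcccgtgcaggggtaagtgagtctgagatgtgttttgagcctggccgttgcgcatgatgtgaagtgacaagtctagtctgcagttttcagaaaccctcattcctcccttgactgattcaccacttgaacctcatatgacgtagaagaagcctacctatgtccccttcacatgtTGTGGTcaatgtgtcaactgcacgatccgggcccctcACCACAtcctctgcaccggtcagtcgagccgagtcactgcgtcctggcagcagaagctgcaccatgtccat
CD247: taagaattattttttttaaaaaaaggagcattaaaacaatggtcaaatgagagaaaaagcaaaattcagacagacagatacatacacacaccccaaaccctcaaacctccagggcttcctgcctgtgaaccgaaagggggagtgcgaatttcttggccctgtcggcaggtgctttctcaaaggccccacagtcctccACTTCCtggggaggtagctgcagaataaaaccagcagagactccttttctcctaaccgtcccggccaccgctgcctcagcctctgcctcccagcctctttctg
KIR2DL4 held 2 RUNX matches and 1 AP-1 match (TGANTCA), which did not overlap. CD247 held 1 ETS match and none of the other motifs searched. All motifs were searched on both strands. Of 35116 promoter windows of that length, 13.1% held the RUNX letters, 22.8% the ETS letters, 7.71% the AP-1 letters and 7.66% the STAT5 letters TTCNNNGAA. Windows were available for 9 of the 10 genes. NCR3, a receptor gene also called higher with T003 at 24 h, was missing, so its window could not be shown. RUNX letters also stood in the windows of NCR1, FCER1G, TYROBP and HCST. ETS letters also stood in those of NCR1 and TYROBP and in some of the 5 windows listed for FCGR3A. No window of the 9 genes held the STAT5 letters, and the windows of NCR2 and CD2 held none of the 4 motifs.

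Divided by transcript length, untreated NK-92 cells held far more RNA for NKp30 than for any other member. NCR3 stood at 264 ± 7.67 CPM per kilobase of its MANE reference transcript (SD, n = 2). CD247 followed at 83.6 ± 3.55 and HCST at 70.7 ± 4.23 CPM per kilobase. CD2 at 43.4 ± 1.04 and KIR2DL4 at 43.4 ± 1.12 CPM per kilobase did not differ beyond their spread. NCR2 stood at 27.9 ± 1.10 and NCR1 at 14.6 ± 0.993 CPM per kilobase. The ITAM adaptors other than CD247 were scarce, with TYROBP at 3.36 ± 0.259 and FCER1G at 1.71 ± 0.263 CPM per kilobase. FCGR3A came last at 0.176 ± 0.0178 CPM per kilobase. Among the ITAM adaptors, CD247 was thus the most abundant per length in untreated cells. Across the 10 libraries the ranges of neighbouring genes overlapped for CD247 and HCST and for CD2 and KIR2DL4.

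**Figure D1:**
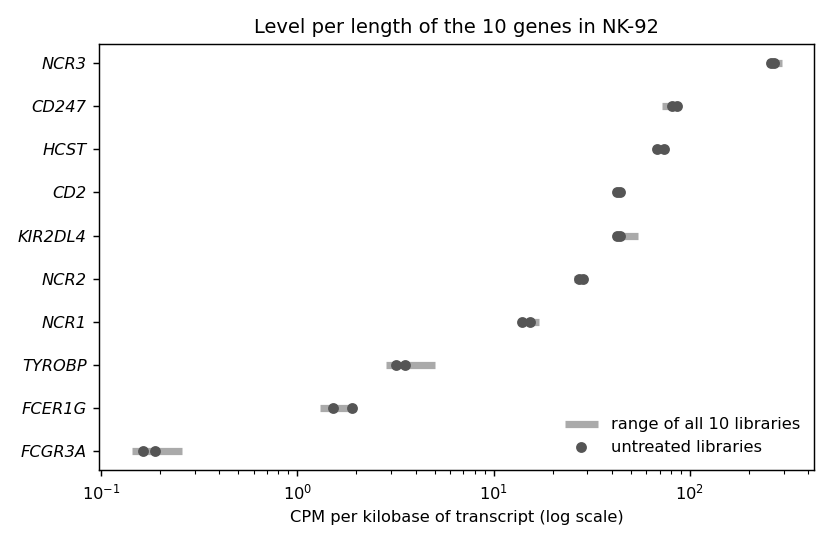
Level of each of the 10 genes in NK-92 cells, as CPM per kilobase of transcript on a log axis; dots are the 2 untreated libraries and grey bars the range over all 10 libraries. NCR3 lies near 264 CPM per kilobase and FCGR3A near 0.176 CPM per kilobase, and the grey bars of CD247 and HCST overlap, as do those of CD2 and KIR2DL4.

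NCR3 (chr6:31588895-31593006, minus strand, 4 exons) encodes NKp30, whose known ligands include B7-H6 and BAG6. Its level was 263.8 and 264 CPM in DFO 6 h cells and 298 and 299 CPM in DFO 24 h cells. With T003 it was 272.7 and 273 CPM at 6 h and 306 and 313 CPM at 24 h. The untreated libraries held 286 and 275 CPM. The groups stood in the order T003 24 h, DFO 24 h, untreated, T003 6 h and DFO 6 h, and no neighbours in that order overlapped. The highest group mean was 1.17 times the lowest.

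NCR1 (chr19:54898198-54938208, plus strand, 7 exons) encodes NKp46, a receptor that marks NK cells across mammals. It held 15.7 and 16.0 CPM in DFO 6 h cells and 17.4 and 17.8 CPM in DFO 24 h cells. With T003 it held 17.9 and 18.3 CPM at 6 h and 19.7 and 19.1 CPM at 24 h, against 17.7 and 16.1 CPM in untreated cells. T003 24 h cells were thus highest and DFO 6 h cells lowest, and only DFO 24 h and untreated cells overlapped among neighbours in that order. NCR2 (chr6:41335608-41350889, plus strand, 5 exons) encodes NKp44, known as a receptor of activated NK cells. It held 31.3 and 31.6 CPM in DFO 6 h cells, 29.1 and 28.9 CPM in DFO 24 h cells, 31.0 and 33.2 CPM in T003 6 h cells and 29.3 and 29.8 CPM in T003 24 h cells. Untreated cells held 30.5 and 32.2 CPM, so both 24 h groups lay below the untreated libraries.

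KIR2DL4 (chr19:54803610-54814517, plus strand, 7 exons) encodes a KIR family receptor known to drive cytokine secretion. It held 59.6 and 61.8 CPM in DFO 6 h cells and 70.8 and 77.9 CPM in DFO 24 h cells. With T003 it held 63.8 and 65.2 CPM at 6 h and 80.1 and 74.9 CPM at 24 h, against 65.3 and 63.0 CPM in untreated cells. The 24 h groups overlapped each other and lay above every other library. Of the 101-base windows of its reference transcript, 0.654% also occurred in a transcript of another gene, KIR2DL1. CD2 (chr1:116754430-116769229, plus strand, 5 exons) varied least of the 10, with a highest group mean 1.06 times the lowest. It ran from 63.7 to 71.4 CPM over the 10 libraries, and every pair of neighbouring groups overlapped.

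FCGR3A (chr1:161541759-161550737, minus strand, 5 exons) encodes CD16, the receptor for antibody-coated targets that NK-92 is known to lack at its surface. Its libraries held 33 and 40 counts in DFO 6 h cells, 40 and 73 in DFO 24 h cells, 49 and 57 in T003 6 h cells, 50 and 43 in T003 24 h cells, and 57 and 44 in untreated cells. That is 0.302 to 0.540 CPM, above the floor of 3 counts but with wide counting error. Of its 101-base windows, 25.1% also occurred in transcripts of other genes and 11.7% in those of FCGR3B, which was listed at 0.173 to 0.400 CPM, so the share of these reads that came from FCGR3A is uncertain.

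CD247 (chr1:167430640-167518529, minus strand, 8 exons) was the adaptor with the clearest movement. It held 135 and 132 CPM in DFO 6 h cells and 115 and 115 CPM in DFO 24 h cells. With T003 it held 134 and 135 CPM at 6 h and 122 and 127 CPM at 24 h, against 129.7 and 138 CPM in untreated cells. Both 24 h groups lay below the untreated libraries, and DFO 24 h cells lay below T003 24 h cells. HCST (chr19:35902529-35904377, plus strand, 4 exons) held 36.6 and 37.9 CPM in DFO 6 h cells, 42.3 and 40.8 CPM in DFO 24 h cells, 39.4 and 38.1 CPM in T003 6 h cells, 41.3 and 41.4 CPM in T003 24 h cells, and 41.6 and 38.2 CPM in untreated cells. Its 24 h levels overlapped the untreated ones.

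TYROBP (chr19:35904403-35908295, minus strand, 5 exons) and FCER1G (chr1:161215295-161219245, plus strand, 5 exons) rested on few counts. TYROBP held 2.88 and 2.58 CPM in DFO 6 h cells, 2.33 and 2.22 CPM in DFO 24 h cells, 2.30 and 2.24 CPM in T003 6 h cells, 1.62 and 1.87 CPM in T003 24 h cells, and 2.04 and 1.83 CPM in untreated cells. Both DFO 6 h libraries were above all others. FCER1G ran from 0.769 to 1.18 CPM, and 3 of the 4 pairs of neighbouring groups overlapped. TYROBP and HCST face each other with 25 bases between their 3′ ends, and whether reads ran past either end was not tested.

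**Figure D2:**
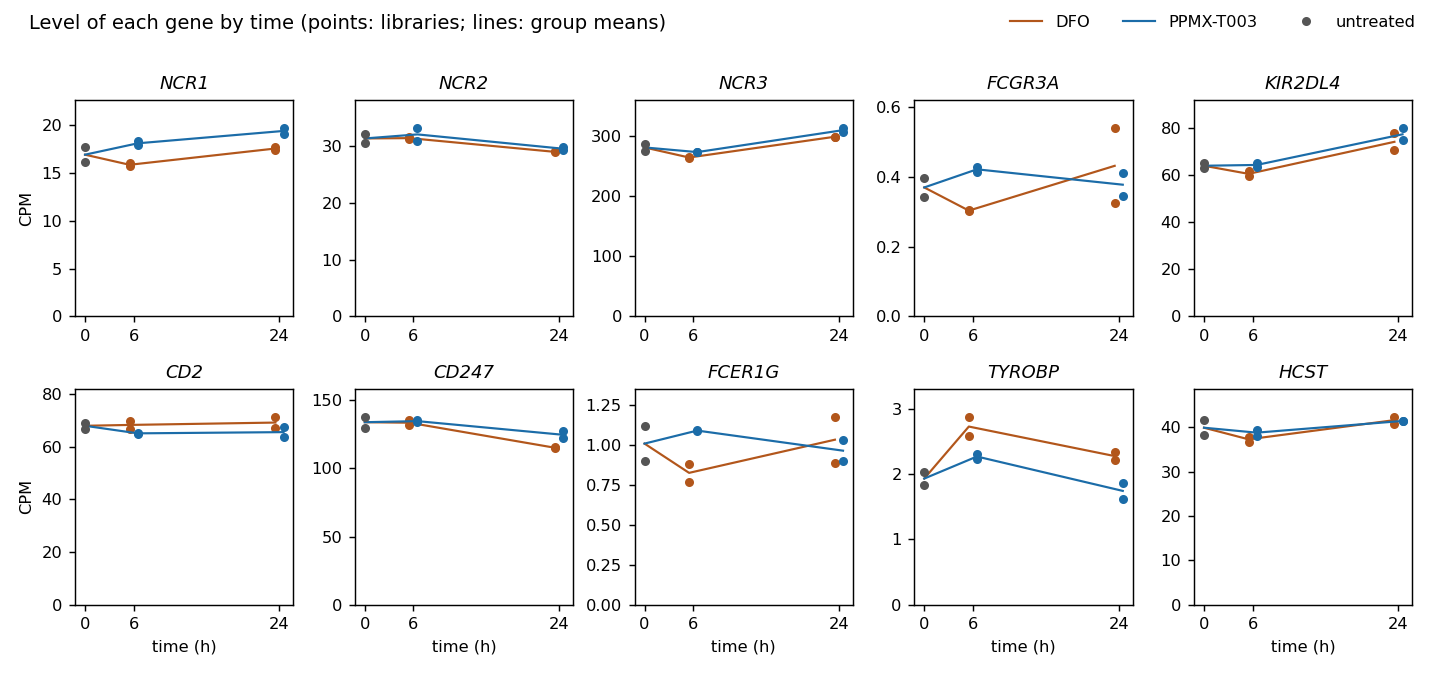
CPM of each of the 10 genes against hours, with a dot per library and lines through group means; DFO is orange, PPMX-T003 blue and untreated cells grey at 0 h, and every vertical axis starts at 0. KIR2DL4 reaches 70.8 to 80.1 CPM at 24 h and CD247 is at 115 to 127 CPM there, against 63.0 to 65.3 CPM and 129.7 to 138 CPM in untreated cells.

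At 6 h, no receptor or adaptor passed the test against untreated cells with either agent. Changes were tested with edgeR's quasi-likelihood test in a model of all 10 libraries, with p-values adjusted over 20125 genes (Benjamini-Hochberg), and a gene counted as higher or lower at an adjusted p under 0.05. With DFO at 6 h, 0 of 10 members were called, where 0.0248% of all genes tested were called, and 2 members had an unadjusted p under 0.05, as had 12.4% of all genes. These were NCR3, with a log2 change of -0.09 (SE 0.024, adjusted p = 0.209), and TYROBP, with a log2 change of 0.50 (SE 0.131, adjusted p = 0.208). DESeq2 called NCR3 alone in this comparison, and limma-voom called none of the 10. With T003 at 6 h, 0 of 10 members were called against 0.0298% of all genes, none had an unadjusted p under 0.05 (7.53% of all genes had), and DESeq2 and limma-voom likewise called none. All comparisons with untreated cells share the same 2 untreated libraries.

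At 24 h with DFO, RNA of the KIR2DL4 receptor was higher and that of the CD247 adaptor lower than in untreated cells. These were 2 of the 10 members, where 6.70% of all genes were called, 3.43% higher and 3.27% lower. Whether 2 of 10 exceeds that share was not tested. The median absolute log2 change of all genes called in this comparison was 0.20. KIR2DL4 averaged 74.3 ± 5.03 CPM in DFO 24 h cells and 64.1 ± 1.65 CPM in untreated cells (SD, n = 2 each), a log2 change of 0.21 (SE 0.047, 95% interval 0.11 to 0.32, adjusted p = 0.0221). CD247 averaged 115 ± 0.389 CPM in DFO 24 h cells and 134 ± 5.68 CPM in untreated cells, a log2 change of -0.22 (SE 0.032, 95% interval -0.29 to -0.15, adjusted p = 0.00236). CD247 passed in every fit that left out 1 library. The KIR2DL4 call ended without DFO 24 h replicate 2 (adjusted p = 0.173), untreated replicate 1 (0.0530) or untreated replicate 2 (0.178), and with only the 2 groups in the model (0.0621). NCR3 missed the threshold with a log2 change of 0.09 (SE 0.024, adjusted p = 0.0518) and passed without untreated replicate 1 (0.0319), and NCR2 had a log2 change of -0.11 (SE 0.047, adjusted p = 0.213). The median log2 change was 0.06 over the 10 members and -0.0023 over all genes tested. The libraries of the 2 groups did not overlap for 5 of 10 members and for 49.3% of all genes.

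At 24 h with T003, the receptor genes NCR3 and KIR2DL4 were higher in RNA than in untreated cells. These were 2 of 10 members, where 12.5% of all genes were called, 7.10% higher and 5.44% lower. Whether 2 of 10 exceeds that share was not tested. The median absolute log2 change of all genes called in this comparison was 0.20. KIR2DL4 averaged 77.5 ± 3.66 CPM in T003 24 h cells and 64.1 ± 1.65 CPM in untreated cells, a log2 change of 0.27 (SE 0.047, 95% interval 0.17 to 0.38, adjusted p = 0.0035). NCR3 averaged 309 ± 4.51 CPM in T003 24 h cells and 281 ± 8.15 CPM in untreated cells, a log2 change of 0.14 (SE 0.024, 95% interval 0.09 to 0.19, adjusted p = 0.00307). Both calls held in every fit that left out 1 library. CD247 missed the threshold at a log2 change of -0.10 (SE 0.032, adjusted p = 0.0626), as did NCR1 at 0.20 (SE 0.061, adjusted p = 0.0600). Both passed without untreated replicate 1, at adjusted p = 0.0241 for CD247 and 0.0450 for NCR1. The median log2 change was -0.012 over the members and -0.0069 over all genes. The groups did not overlap for 5 of 10 members and for 52.8% of all genes.

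**Figure D3:**
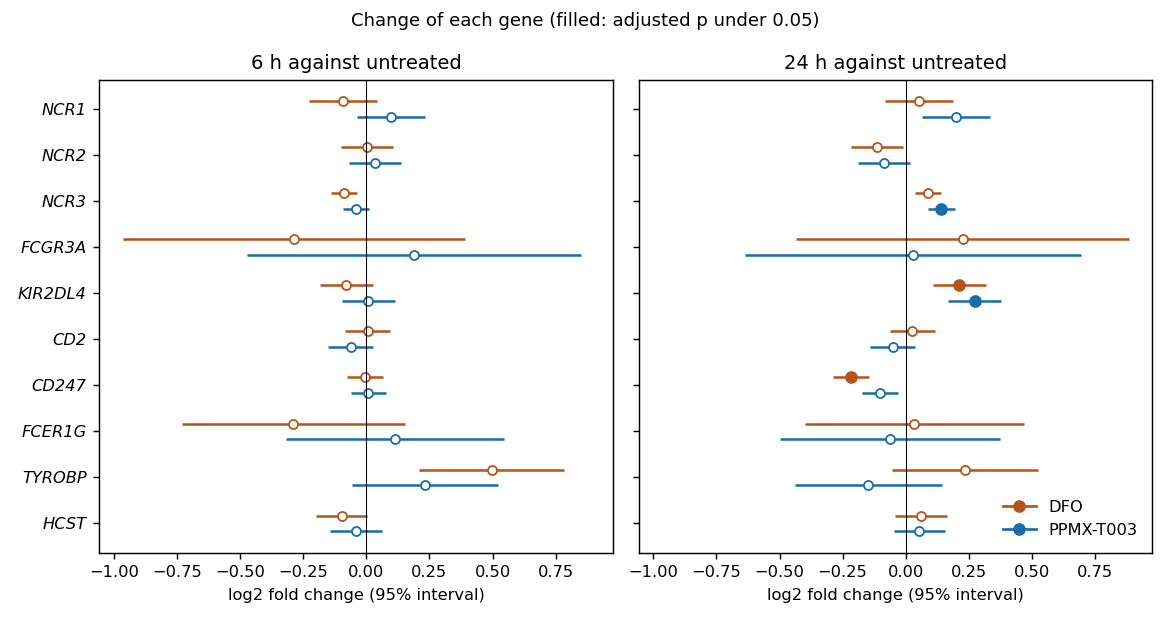
log2 fold change of each of the 10 genes against untreated cells at 6 h (left) and 24 h (right), with 95% intervals; DFO is orange and PPMX-T003 blue, and filled dots have an adjusted p under 0.05. At 24 h KIR2DL4 lies at 0.21 with DFO and 0.27 with T003, and CD247 at -0.22 with DFO and -0.10 with T003.

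Set against each other, the 2 agents left no member called. At 6 h, DFO against T003 gave 0 of 10 members and 0 of 20125 genes by edgeR (0%), with 1334 genes (6.63%) at an unadjusted p under 0.05, and DESeq2 called 14 genes and limma-voom 1, no member among them. NCR1 alone among the members had an unadjusted p under 0.05 at 6 h, at 15.9 ± 0.230 CPM in DFO 6 h cells and 18.1 ± 0.276 CPM in T003 6 h cells (log2 difference -0.19, SE 0.061, adjusted p = 0.706). At 24 h, 0 of 10 members were called, where 1.34% of all genes were, and 3 had an unadjusted p under 0.05, as had 13.9% of all genes. CD247 averaged 115 ± 0.389 CPM in DFO 24 h cells and 124 ± 3.44 CPM in T003 24 h cells, a log2 difference of -0.11 (SE 0.032, 95% interval -0.19 to -0.04, adjusted p = 0.125, and 0.0169 with DESeq2). TYROBP stood at 2.28 ± 0.0806 CPM in DFO 24 h cells and 1.74 ± 0.172 CPM in T003 24 h cells (log2 difference 0.38, SE 0.132, adjusted p = 0.206). NCR1 had a log2 difference of -0.14 (adjusted p = 0.322). For KIR2DL4 the 95% interval of the log2 difference ran from -0.16 to 0.04, and for NCR3 from -0.10 to 0.00059, so differences of that size between the agents were not resolved. A member called with one agent and not with the other is thus not shown to differ between them.

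Within each agent, NCR3 and KIR2DL4 were higher and CD247 lower at 24 h than at 6 h. With DFO these were 3 of 10 members, where 9.89% of all genes were called (5.29% higher, 4.60% lower). With T003 they were also 3 of 10, where 13.5% were called (7.55% higher, 5.93% lower). With DFO, NCR3 averaged 299 ± 0.475 CPM at 24 h and 264 ± 0.225 CPM at 6 h (log2 change 0.18, SE 0.024, adjusted p = 0.000872). With DFO, KIR2DL4 averaged 74.3 ± 5.03 CPM at 24 h and 60.7 ± 1.53 CPM at 6 h (log2 change 0.29, SE 0.048, adjusted p = 0.00291). CD247 with DFO averaged 115 ± 0.389 CPM at 24 h and 133 ± 2.62 CPM at 6 h (log2 change -0.21, SE 0.032, adjusted p = 0.00192). The same genes moved the same way between the T003 time points, whose libraries are not those of the DFO groups. The tests of both agents still came from the shared model of all 10 libraries, so they were not independent. Both comparisons also set 24 h against 6 h, and the part of time in culture in them was not tested.

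With T003, NCR3 averaged 309 ± 4.51 CPM at 24 h and 273 ± 0.398 CPM at 6 h (log2 change 0.18, SE 0.024, adjusted p = 0.00059). KIR2DL4 averaged 77.5 ± 3.66 CPM at 24 h and 64.5 ± 1.01 CPM at 6 h with T003 (log2 change 0.27, SE 0.047, adjusted p = 0.00368). CD247 with T003 averaged 124 ± 3.44 CPM at 24 h and 135 ± 0.802 CPM at 6 h (log2 change -0.11, SE 0.032, adjusted p = 0.0431). That last call was fragile, since it ended without DFO 24 h replicate 1 (adjusted p = 0.0587) or 2 (0.0583), T003 24 h replicate 1 (0.235) or 2 (0.0521), or T003 6 h replicate 1 (0.120) or 2 (0.192). HCST missed the threshold with DFO, at 41.6 ± 1.08 CPM at 24 h and 37.3 ± 0.878 CPM at 6 h (log2 change 0.16, SE 0.046, adjusted p = 0.0562). It passed without untreated replicate 1 (0.0437) or 2 (0.0332). TYROBP with T003 had a log2 change of -0.38 (SE 0.132, adjusted p = 0.0898). The 24 h and 6 h libraries did not overlap for 9 of 10 members with DFO and 9 of 10 with T003, against 49.9% and 52.9% of all genes. The median log2 change over the members was 0.15 with DFO and -0.05 with T003, and over all genes -0.0015 with DFO and -0.0051 with T003.

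Genes listed as kinases, scaffolds and enzymes of ITAM signalling were nearly all present and moved in both directions at 24 h. PAG1 was counted here, and was lower with T003, though it is known to act as a restraint. Of 30 listed genes, 28 were tested, and none was called at 6 h with either agent. With DFO at 24 h, 6 were higher and 3 lower, against 6.70% of all genes, and with T003 8 were higher and 7 lower, against 12.5%. The 28 genes held at least 18 CPM in untreated cells, and those shares were not matched for level. Whether the counts exceed the shares was not tested. The list's median log2 change was 0.0047 with DFO, where that of all genes was -0.0023, and -0.011 with T003, where that of all genes was -0.0069. GRAP2, the GADS adaptor that links LAT to LCP2, averaged 44.6 ± 2.08 CPM with DFO, 47.2 ± 0.262 CPM with T003 and 58.9 ± 2.66 CPM in untreated cells, with log2 changes of -0.40 (adjusted p = 0.000213) and -0.32 (adjusted p = 0.000605). MALT1, a protease that acts with BCL10, was lower with both agents (log2 changes -0.21 and -0.22, adjusted p = 0.00219 and 0.00102). GRAP2 and MALT1 were called in every fit that left out 1 library.

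PLCG2, the phospholipase C gamma 2 enzyme, was the 1 gene of these lists called between the agents at 24 h, and it is named for that reason after its values were seen. Its log2 difference, DFO against T003, was 0.16 (SE 0.032, adjusted p = 0.0416). Its log2 change against untreated cells was -0.0079 with DFO (adjusted p = 0.945), a sign that turned to 0.032 without DFO 24 h replicate 2 and 0.027 without untreated replicate 1, and -0.17 with T003 (adjusted p = 0.00597). The call between the agents ended without any 1 of the 8 treated libraries (adjusted p 0.0508 to 0.209). Without untreated replicate 2, the ITAM list counts were 2 higher and 2 lower with DFO and 3 higher and 4 lower with T003. Without DFO 24 h replicate 1 or replicate 2, 3 were higher with DFO. Without untreated replicate 1 or either T003 24 h replicate, 4 were lower with T003, and without T003 24 h replicate 1, 5 were higher.

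Genes listed as restraining ITAM signalling were called in both directions as well. INPP5B was counted among them, though its role as a restraint is not established. Of 16 tested, 3 were higher and 1 lower with DFO at 24 h, where 6.70% of all genes were called, and 3 higher and 1 lower with T003, where 12.5% were. The list's median log2 change was 0.06 with DFO and 0.03 with T003, against -0.0023 and -0.0069 over all genes. SLA, an adaptor known in T cells to promote the loss of CD247 protein through CBL, averaged 68.6 ± 0.668 CPM in DFO 24 h cells, 67.9 ± 1.72 CPM in T003 24 h cells and 44.2 ± 6.48 CPM in untreated cells. Its log2 changes of 0.63 (adjusted p = 0.000473) and 0.62 (adjusted p = 0.000366) passed in every fit that left out 1 library. Its relative SLA2 was lower, at 249.7 ± 2.67 CPM with DFO, 243 ± 5.68 CPM with T003 and 271 ± 3.44 CPM in untreated cells, with log2 changes of -0.12 (adjusted p = 0.0265) and -0.16 (adjusted p = 0.00349). PTPN6, the phosphatase SHP-1, averaged 7.23 ± 0.361 CPM with DFO, 6.54 ± 0.0597 CPM with T003 and 4.74 ± 0.741 CPM in untreated cells, with log2 changes of 0.61 (adjusted p = 0.0149) and 0.46 (adjusted p = 0.0343).

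Single libraries decided some of these calls. SLA2 with DFO ended without either DFO 24 h replicate or either untreated one (adjusted p 0.0660 to 0.248). PTPN6 with DFO ended without DFO 24 h replicate 1 (0.0504), DFO 24 h replicate 2 (0.111) or untreated replicate 2 (0.157). PTPN6 with T003 ended without either DFO 24 h replicate, either T003 24 h replicate or untreated replicate 2 (adjusted p 0.0509 to 0.273). The count of restraining genes called higher was 1 in each comparison without untreated replicate 2 or without either replicate of the agent's 24 h group. No such gene was called lower with DFO without either DFO 24 h replicate or either untreated one.

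**Figure D4:**
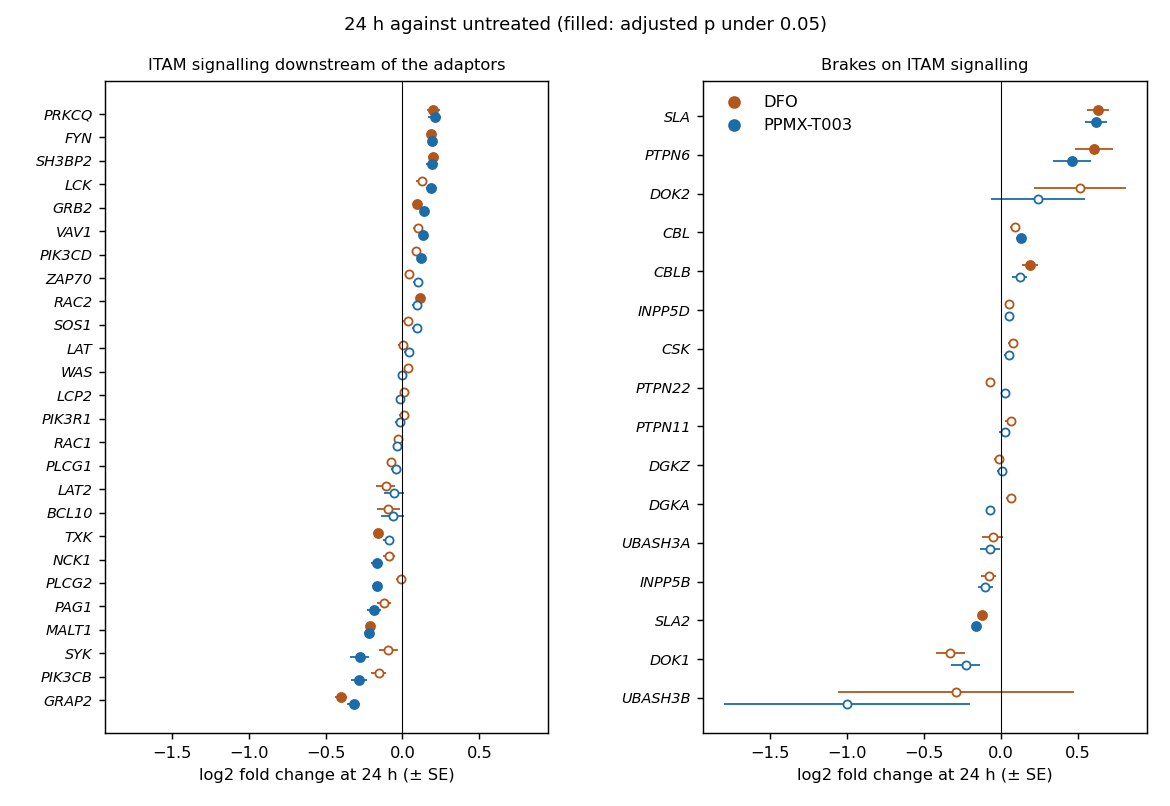
log2 fold change at 24 h against untreated cells, with SE bars, for genes listed under ITAM signalling (left) and the 16 listed as restraining it (right). DFO is orange, PPMX-T003 blue, and filled dots have an adjusted p under 0.05. GRAP2 lies at -0.40 with DFO and -0.32 with T003, SLA at 0.63 and 0.62, and the dots of each list lie on both sides of 0.

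Of 20 other receptors listed as pairing with these adaptors, 10 had enough counts to test. FCGR3B was among the 10, though its pairing with them is not established. LILRA2, which pairs with FCER1G, was the 1 called at 24 h. That count is near the 6.70% of all genes called with DFO and the 12.5% with T003. It averaged 1.89 ± 0.176 CPM in DFO 24 h cells, 2.05 ± 0.195 CPM in T003 24 h cells and 1.25 ± 0.121 CPM in untreated cells, with log2 changes of 0.59 (adjusted p = 0.0370) and 0.71 (adjusted p = 0.00928). The call with DFO ended without either DFO 24 h, untreated or T003 6 h replicate (adjusted p 0.0535 to 0.260), with no filter (0.0591), with only the 2 groups (0.0984) and with DESeq2 (0.0622), and that with T003 without untreated replicate 2 (0.0940) or T003 24 h replicate 2 (0.0761). CD3E, a partner of CD247 in the T cell receptor complex, stood at 451 ± 11.6 CPM in DFO 24 h cells, 438 ± 5.01 CPM in T003 24 h cells and 435 ± 1.51 CPM in untreated cells (adjusted p = 0.259 and 0.890). SIRPB1, which pairs with TYROBP, stood at 2.86 ± 0.0522 CPM with DFO, 2.30 ± 0.155 CPM with T003 and 2.76 ± 0.148 CPM in untreated cells (adjusted p = 0.903 and 0.223). KLRK1, the HCST partner NKG2D, stood at 18.3 CPM in untreated cells and was not called.

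Of 7 inhibitory KIR, LILR and related receptors, 4 were tested, and LILRB1 was the 1 well above 1 CPM. LILRB1, an inhibitory receptor for HLA class I that includes HLA-G, averaged 79.5 ± 0.137 CPM in DFO 24 h cells, 81.4 ± 0.657 CPM in T003 24 h cells and 61.5 ± 5.31 CPM in untreated cells. It was the 1 of 4 called with each agent, where 6.70% of all genes were called with DFO and 12.5% with T003, with log2 changes of 0.37 (adjusted p = 0.000812) and 0.41 (adjusted p = 0.000279). KIR3DL1 stood at 1.37 ± 0.136 CPM with DFO, 1.14 ± 0.109 CPM with T003 and 0.999 ± 0.220 CPM in untreated cells (adjusted p = 0.246 and 0.656). KIR2DL1 was listed at 0 in both untreated libraries and reached at most 0.144 CPM.

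NK-92 cells also carry RNA for ligands of the receptors, and 8 of 10 were tested. CD58, the CD2 ligand, averaged 17.4 ± 0.884 CPM in DFO 24 h cells, 17.6 ± 1.11 CPM in T003 24 h cells and 22.8 ± 0.454 CPM in untreated cells, with log2 changes of -0.39 (adjusted p = 0.00284) and -0.37 (adjusted p = 0.00223). CD48, a ligand of 2B4 that also binds CD2 weakly in humans, averaged 292 ± 1.64 CPM with DFO, 294 ± 5.51 CPM with T003 and 266 ± 5.09 CPM in untreated cells, with log2 changes of 0.14 (adjusted p = 0.00492) and 0.15 (adjusted p = 0.00202). BAG6, an NKp30 ligand, stood at 265 ± 4.86 CPM with DFO, 280.4 ± 0.479 CPM with T003 and 266 ± 1.57 CPM in untreated cells (adjusted p = 0.922 and 0.0785). CD58 and CD48 were the 2 ligands called, in opposite directions, with each agent, where 6.70% of all genes were called with DFO and 12.5% with T003.

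Among 7 genes listed as CD2 partners, all tested, 2 were higher with DFO at 24 h, where 3.43% of all genes were. With T003, 1 was higher, where 7.10% of all genes were. Not all of the 7 are known to bind the CD2 tail. PSTPIP1, which binds that tail, averaged 102 ± 0.334 CPM in DFO 24 h cells, 104 ± 1.13 CPM in T003 24 h cells and 89.9 ± 0.210 CPM in untreated cells, with log2 changes of 0.18 (adjusted p = 0.00461) and 0.21 (adjusted p = 0.000831). CD2AP, a scaffold named for CD2, averaged 109 ± 3.30 CPM with DFO, 103 ± 1.30 CPM with T003 and 94.9 ± 6.80 CPM in untreated cells. Its log2 change was 0.20 with DFO (adjusted p = 0.0277), a call that ended without either DFO 24 h replicate or untreated replicate 2 (adjusted p 0.0514 to 0.207) and with only the 2 groups (0.0819), and 0.12 with T003 (adjusted p = 0.128, and 0.0253 without untreated replicate 1). CAPZA1, a capping protein subunit, stood at 353 ± 3.05 CPM with DFO, 335 ± 1.78 CPM with T003 and 338 ± 4.05 CPM in untreated cells (adjusted p = 0.0923 and 0.800).

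Markers of other cell types were checked because FCER1G, TYROBP and CD247 are also made by myeloid, mast or T cells. B cell markers summed to at most 0.379 CPM, and CD3G, CD8B, MS4A2 and FCER1A were at 0 in all libraries. The 12 monocyte and macrophage markers, 2 of them at 1 CPM or more (ITGAX and CD68) and 4 at 0 in every library, summed to 7.94 to 8.05 CPM in DFO 24 h cells, 6.87 to 7.71 CPM in T003 24 h cells and 5.94 to 6.21 CPM in untreated cells. Their sum was thus higher in both 24 h groups. The 13 T cell markers, 7 of them at 1 CPM or more, summed to 787 to 814 CPM in DFO 24 h cells, 799 to 808 CPM in T003 24 h cells and 742 to 762 CPM in untreated cells, with CD3E at a mean of 433 CPM and CD28 at 107 CPM. The 7 mast cell and basophil markers, 1 of them at 1 CPM or more (KIT) and 5 at 0 in every library, summed to 1.28 to 1.39 CPM in DFO 24 h cells, 1.12 to 1.14 CPM in T003 24 h cells and 1.98 to 2.01 CPM in untreated cells. Their sum was thus lower in both 24 h groups. The NK list was higher in T003 24 h cells, and the part of these shifts in the 24 h results was not tested.

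Genes that overlap members were counted too, because no source used here says whether reads were assigned by strand, and reads of overlapping genes then cannot be told apart. LST1, which overlaps NCR3 on the opposite strand, averaged 6.79 ± 0.250 CPM in DFO 24 h cells, 5.08 ± 0.531 CPM in T003 24 h cells and 7.27 ± 0.152 CPM in untreated cells. It was lower with T003 (log2 change -0.52, SE 0.096, adjusted p = 0.00508, and 0.0549 without T003 24 h replicate 2), while NCR3 was higher. NLRP7, which overlaps NCR1, ran from 0.318 to 0.724 CPM, and LOC101928512, which overlaps CD247, from 0.231 to 0.648 CPM. Neither reached 1 CPM, while the lowest library held 15.7 CPM of NCR1 and 115 CPM of CD247. All these levels were counted after reads had been assigned to genes. How many reads of an overlapping gene were counted with a member was therefore not tested.

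The genes whose log2 CPM most resembled each called member over the 10 libraries were ranked among 10208 candidates, as a description. The points share libraries and the 24 h step, so high values are common. For NCR3 the closest were TNFRSF8 (Pearson's r = 0.987), which encodes CD30, and SLC29A1 (r = 0.984), a nucleoside transporter. For KIR2DL4 they were TTLL12 (r = 0.987) and RGS14 (r = 0.984), a regulator of G protein signalling. For CD247 they were NQO1 (r = 0.988), a quinone reductase, and VPS39 (r = 0.983), a subunit of the HOPS tethering complex. NQO1 averaged 83.4 ± 0.0735 CPM in DFO 24 h cells, 89.9 ± 2.77 CPM in T003 24 h cells and 101 ± 4.86 CPM in untreated cells. TNFRSF8 averaged 128 ± 1.02 CPM in DFO 24 h cells, 134 ± 0.670 CPM in T003 24 h cells and 115 ± 3.24 CPM in untreated cells, the same order of these groups as NCR3.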

How the data were processed

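Polyadenylated RNA was isolated with Qiazol and turned into libraries by a TruSeq Standard mRNA kit, per the labels' protocols. The trimmer was fastp 0.21.0, the aligner HISAT2 2.2.1 (hg38) and the counter StringTie 2.1.6 with RefSeq genes, per the submitters' processing notes and the series' design text, for paired reads of 101 bases. The authors deposited estimated counts per gene, not normalized. They are whole numbers, so none was rounded. Strand handling is not stated in the labels.

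Counts were tested with edgeR 4.0.16 in R 4.3.3 (glmQLFit and glmQLFTest, TMM scaling, filterByExpr with a minimum count of 10). A single model of the 10 libraries, with a mean per group, gave 8 contrasts. Standard errors are the log2 change divided by the root of the F statistic. Each alternative changed 1 choice: scaling, filter, DESeq2 1.42.0, limma-voom 3.58.1, the replicate block, the 2 groups alone, or each library left out. The last 2 kinds of fit ran filterByExpr again on the libraries kept, so the genes tested, and with them the p adjustment, changed too: fewer with the 2 groups alone, more with a library left out. The members and lists were chosen with earlier results of these data known. The shares of all genes called were not matched for level, and no excess over them was tested. Named genes are the 3 of each list with the smallest p at 24 h, the 2 genes most like each called member, overlapping genes and markers. Some genes of the ITAM list are counted with it but not reported singly here. Coordinates are those of GRCh38.p14. CPM per kilobase divides CPM by the length of the MANE transcript. The tests were checked on simulated data.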

Additional observations from a re-analysis of the deposited data

Results flagged for a closer look

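The change against the same untreated cells differed between 24 h and 6 h for 3 members with each agent, by the direct test of 24 h against 6 h (edgeR, adjusted p under 0.05). It is the same contrast as that reported within each agent above, not a further test. With DFO, the log2 difference of 24 h from 6 h was 0.18 for NCR3, 0.29 for KIR2DL4 and -0.21 for CD247. With T003 it was 0.18 for NCR3, 0.27 for KIR2DL4 and -0.11 for CD247, the last a fragile call as described above. With groups of 2 libraries, no library could be tested for standing apart from its group.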

How the results depend on the processing

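Of 18 alternatives, 8 kept all libraries and 10 left out 1 each. Members called with DFO at 6 h were 1 with DESeq2 (NCR3, adjusted p = 0.0133). With DFO at 24 h they were 1 with only the 2 groups in the model and 1 to 2 with a library left out. With T003 at 24 h they were 4 with a filter of at least 1 CPM in 2 libraries, 4 with DESeq2, and 2 to 4 with a library left out, the added genes being NCR1 and CD247. Between the agents at 24 h they were 1 with DESeq2 (CD247). CD247 with T003 at 24 h also passed with library totals in place of TMM (adjusted p = 0.0401) and with no filter (0.0432). NCR3 with DFO at 24 h passed with the 1 CPM filter (0.0483), limma-voom (0.0296) and DESeq2 (0.00553), NCR1 with T003 at 24 h with limma-voom (0.0377), and HCST between DFO times with the 1 CPM filter (0.0410) and DESeq2 (0.0242). At 24 h, DESeq2 and limma-voom both called CAPZA1 with DFO (adjusted p = 0.0216 and 0.0453) and BAG6 with T003 (0.0215 and 0.0495). DESeq2 also called CD2AP with T003 (0.0383). KIR2DL4 between the agents at 24 h ran from -0.13 to 0.0121 (log2) with a library left out, and PLCG2 with DFO at 24 h from -0.0378 to 0.0319; the cause was not tested. Over all members and comparisons, 23 of 80 log2 changes took the other sign under at least 1 alternative, and 0 of these were called. Differences between replicates 1 and 2 were hardly correlated across groups (-0.0521 to 0.0125 over 20125 genes). Their SD over all these genes, those of few counts included, was 0.625 to 0.685 log2. That SD does not measure the spread of the members. A small effect shared by replicate number could still be missed. The replicate block left members called at 2 and 2 at 24 h and 3 and 3 between times. With that block, PLCG2 between the agents (adjusted p = 0.0563) and PTPN6 with T003 (0.0503) no longer passed. Genes called over the whole table at 24 h ran, with a library left out, from 431 to 1383 with DFO (1349 with all libraries, lowest without untreated replicate 2), from 1084 to 2544 with T003 (2524, lowest without untreated replicate 2) and from 14 to 229 between the agents (270, lowest without T003 24 h replicate 2). With DESeq2 the counts at 6 h were 522 with DFO and 81 with T003, against 5 and 6, and 888 between the agents at 24 h. With the replicate block they were 2 with DFO at 6 h, 1 with T003 at 6 h and 117 between the agents at 24 h. Between 24 h and 6 h they ran from 950 to 1824 with DFO (1991 with all libraries) and from 1336 to 2739 with T003 (2714). The depth of FCGR3A and FCER1G, at no more than 145 counts a library, limits what could be detected for them. The alternatives for the pathway lists, PLCG2 and LST1 were added after seeing the data.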
